A study of Mus musculus with 8 samples.

Results

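The nuclear genes of the mitochondrial respiratory chain and of ATP synthase were compared between islets of control mice and of mice that had lost *Itgb1*, which encodes integrin β1, in the endocrine lineage. The genes were taken by symbol from the deposited count table, as every *Ndufa*, *Ndufb*, *Ndufc*, *Ndufs*, *Ndufv*, *Uqcr* and *Atp5* gene, every *Cox* gene numbered 4 to 8, and *Sdha* to *Sdhd*. This gave 93 of 24091 listed genes. They were divided into 36 complex I subunits, 8 complex I assembly factors, 4 complex II subunits, 8 complex III subunits, 20 complex IV genes, 15 complex V genes, and 2 others, *Atp5s* and *Atp5sl*, which are named for ATP synthase but are not counted as subunits of it.

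Total RNA was measured in 8 libraries of islets from 6-week-old C57BL/6 mice. The 4 control libraries were labelled wild-type and the 4 mutant libraries Ngn3-Cre, itgb1-/-, the genotype called Itgb1ΔEndo/ΔEndo in the study. Each RNA preparation pooled 10 to 30 islets after a night in culture, and ribosomal RNA was removed before sequencing. Ngn3-Cre deletes floxed *Itgb1* in endocrine progenitors and so in their descendants, while duct, vessel and connective tissue cells in an islet keep the gene. Ngn3 is also expressed in brain and gut. The labels do not say whether the controls carried Cre, and they call the libraries biological replicates without tying each to a mouse. The study's list of replicates counts fewer animals than libraries per genotype for this sequencing, so some libraries may share an animal. P-values and n = 4 therefore refer to libraries and measure only the spread between them.

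In CPM (counts scaled to a common library size with TMM factors), *Itgb1* itself stood at 421.5, 431.9, 408.0 and 314.5 in controls 1 to 4 and at 265.7, 225.5, 193.3 and 254.8 in mutants 1 to 4. The counts cover the whole gene and all cells of the islets, and the groups did not overlap (two-sided exact permutation p = 0.0286, which is the lowest value possible for 4 against 4 libraries). The libraries held 35.1 to 67.6 M counts (M, mega). Control 2, control 3 and mutant 3 held over 50 M and stood apart in many genes, and results are given below with this library set accounted for. Markers of endocrine cells were abundant in all libraries, with 8 hormone and granule genes summing to 61700 to 289709 CPM in controls and 50476 to 77003 CPM in mutants. Markers of exocrine acinar cells summed to 2868 and 8942 CPM in controls 2 and 3 and to 14.7 to 628.4 CPM in the other 6 libraries.

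The respiratory chain passes electrons from NADH (complex I) and succinate (complex II) through complex III and cytochrome c to complex IV, which reduces oxygen. Complexes I, III and IV pump protons across the inner mitochondrial membrane, and complex V, the ATP synthase, uses that gradient to make ATP. In β-cells the ATP made in this way closes potassium channels in the cell membrane and so couples glucose to insulin secretion. Most subunits are encoded in the nucleus. The subunits encoded by the mitochondrial genome were not analysed here. Several complex IV subunits exist in a general form and in a second form with restricted expression in muscle, lung, testis or the cells around small vessels.

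Nearly all of the nuclear genes differed little between genotypes. Of 93 genes, 90 had enough counts to be tested, and none passed an adjusted p of 0.05 in edgeR's quasi-likelihood test (background 0% of 15233 genes in each direction). The smallest adjusted p was 0.301, for *Ndufa4l2*. The deleted gene did not pass in this test either: *Itgb1* had a log2 fold change of -0.75 and an adjusted p of 0.233 (0.00123 in DESeq2). A gene not called here is therefore not shown to be unchanged. At an unadjusted p below 0.05, 9 of the 90 genes were higher in mutants (background 6.8%) and 1 was lower (background 7.19%). DESeq2 and edgeR's likelihood ratio test each called a single member, *Ndufa4l2*, as higher, with a fold change over 2 (background in DESeq2 0.729% higher and 0.499% lower). DESeq2 had 10 members higher at an unadjusted p below 0.05 (background 8.02%) and 0 lower (background 8.72%). The 95% confidence interval of the log2 fold change lay within a 2-fold change in either direction for 79 of the 90 genes, so for these a larger change than that is outside the interval. The other 11 had few counts or differed strongly between libraries of one genotype.

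The small differences leaned upwards. Of the 90 genes, 60 had a log2 fold change above 0 and 30 below (background 50.2% above 0), with a median of 0.10 beside 0.00 over all genes tested. In 11 genes every mutant library was above every control library (background 4.4%), and in none was every mutant library below every control (background 3.8%). These 11 were *Ndufa3*, *Ndufa12*, *Ndufs4*, *Ndufaf1*, *Uqcrq*, *Ndufa4*, *Cox5b*, *Ndufa4l2*, *Cox7a1*, *Cox6b2* and *Atp5c1*. The median moved most with mutant 3: without it the median was -0.05, where controls 2 and 3 were the only libraries over 50 M counts left. Within the 5 libraries under 50 M counts, which also lack mutant 3, the median was 0.09. With a term for the library set it was 0.18. When only total counts were used for scaling, the median was 0.26, beside a shift of 0.15 over all genes, with 18 genes higher at an unadjusted p below 0.05 (background 7.58%) and 0 lower (background 3.56%).

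**Figure D1:**
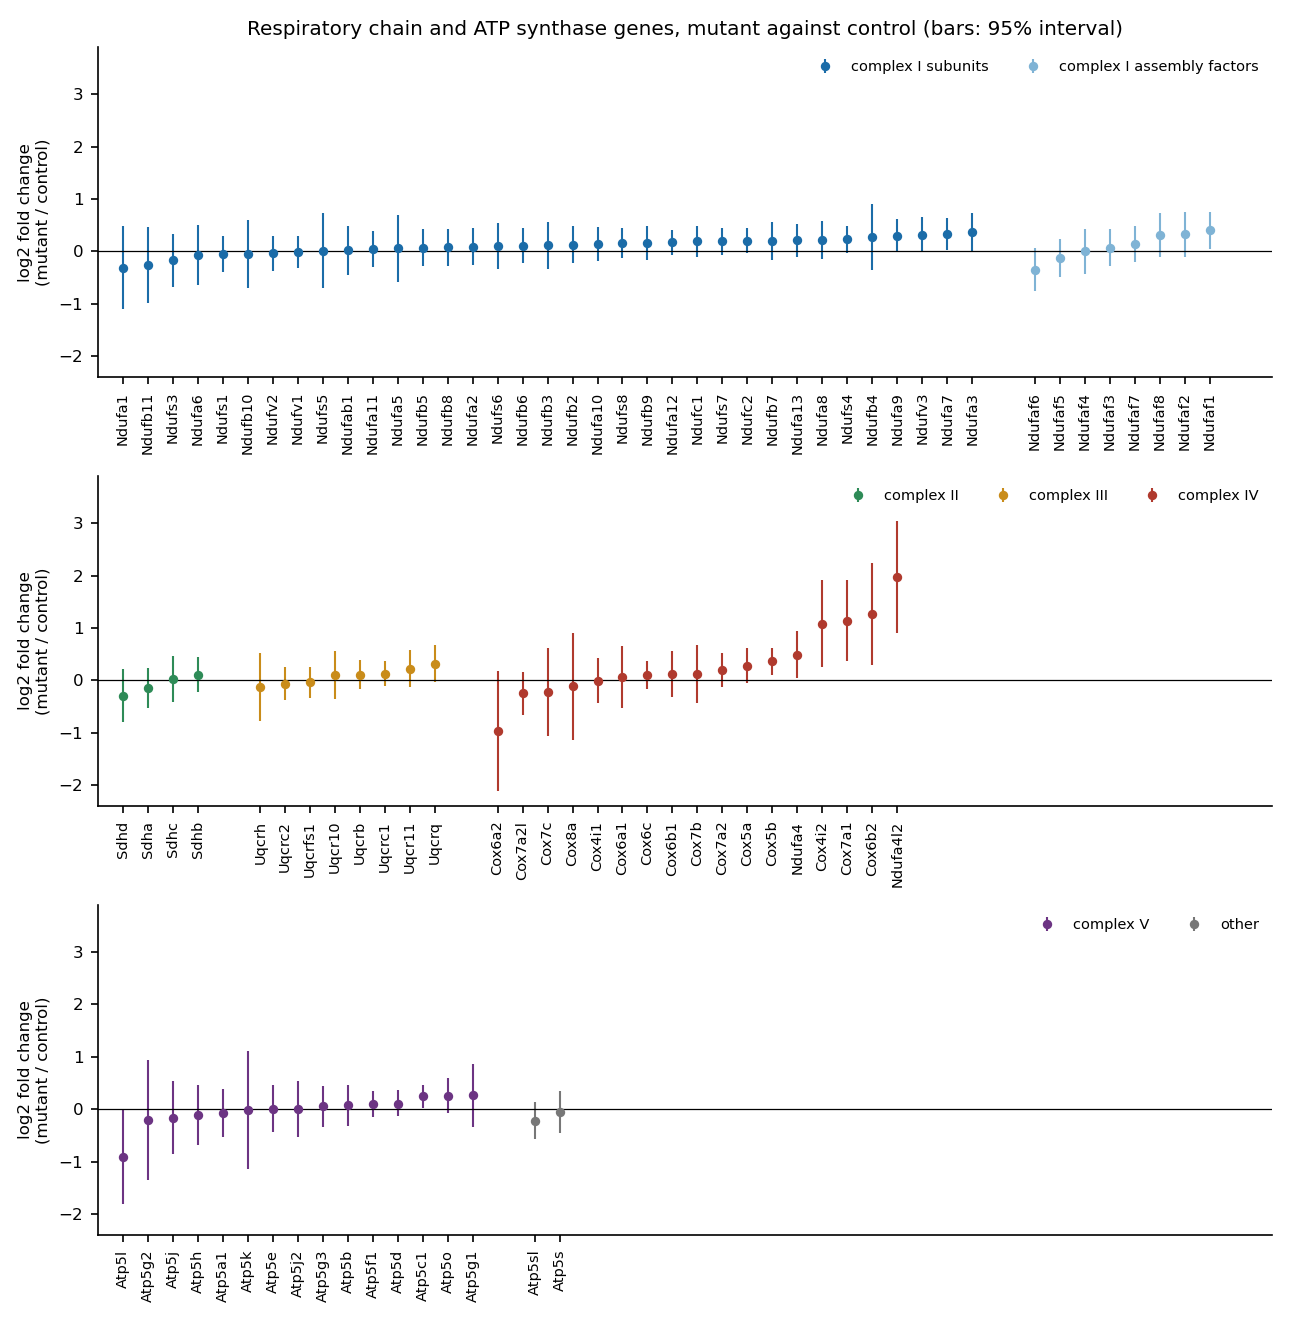
Log2 fold change of the tested genes, mutant over control, by complex, with 1 gene not shown (y axis, log2 scale; points are edgeR estimates from 4 against 4 libraries, bars 95% confidence intervals). Most points lie between -0.4 and 0.5, and 4 complex IV genes, *Cox4i2*, *Cox7a1*, *Cox6b2* and *Ndufa4l2*, lie above 1.

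Among complex I subunits, 27 of 36 had a log2 fold change above 0 and 9 below, with a median of 0.11. The 7 core subunits, which hold the flavin and iron-sulphur clusters or lie beside them, had 2 genes above 0 and 5 below, with a median of -0.04. *Ndufs1*, which carries iron-sulphur clusters in the peripheral arm, was at 84.7, 108.8, 98.6 and 78.7 CPM in controls and 84.0, 83.5, 113.3 and 77.0 CPM in mutants. The libraries over 50 M counts were the 3 highest, and the log2 fold change was -0.05 (SE 0.15, edgeR adjusted p = 0.892). *Ndufs3*, *Ndufs7* and *Ndufv1* had log2 fold changes of -0.17, 0.19 and -0.01.

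The 29 accessory subunits, which surround the core and stabilise it, had a median log2 fold change of 0.13, with 25 above 0 and 4 below. *Ndufa3*, one of the small membrane-bound accessory subunits, was at 19.3, 14.7, 20.5 and 20.8 CPM in controls and 23.4, 20.8, 29.8 and 23.1 CPM in mutants. The lowest mutant library was level with the highest control to within 0.1 CPM, and the log2 fold change was 0.37 (SE 0.16, edgeR adjusted p = 0.36). *Ndufa7* had the smallest unadjusted p of the subunits, with a log2 fold change of 0.33 (SE 0.13, edgeR adjusted p = 0.341). *Ndufv3*, which sits beside the NADH-oxidising core, had a log2 fold change of 0.32 (SE 0.15, adjusted p = 0.369).

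The 8 assembly factors build complex I without staying in it, and they showed no common direction, with 5 above 0, 3 below and a median of 0.11. *Ndufaf1*, which works on the membrane arm, was at 9.91, 7.27, 8.25 and 9.75 CPM in controls and 12.4, 11.3, 11.8 and 10.8 CPM in mutants. Its groups did not overlap, with a log2 fold change of 0.40 (SE 0.15, edgeR adjusted p = 0.335). *Ndufaf6* lay at the other end, with a log2 fold change of -0.35 (SE 0.18, adjusted p = 0.401), and *Ndufaf2* at 0.33.

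Complex II, which is also the succinate dehydrogenase of the citrate cycle, had 2 genes above 0 and 2 below and a median of -0.06. *Sdha*, its flavoprotein, was at 215.3, 319.7, 300.2 and 224.5 CPM in controls and 214.5, 221.7, 292.1 and 224.8 CPM in mutants. The 3 libraries over 50 M counts held the 3 highest values, whatever the genotype, and the log2 fold change was -0.15 (SE 0.17). *Sdhb*, the iron-sulphur subunit, was at 0.11 and the membrane anchor *Sdhd* at -0.29 on the same scale.

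Complex III had 5 genes above 0 and 3 below, with a median log2 fold change of 0.11. Its core-protein genes *Uqcrc1* (0.13) and *Uqcrc2* (-0.06) and the Rieske iron-sulphur protein *Uqcrfs1* (-0.03) all lay near 0. *Uqcrq*, a small accessory subunit, was at 71.3, 69.2, 66.3 and 71.6 CPM in controls and 73.1, 77.3, 119.0 and 78.8 CPM in mutants. Mutant 3 stood well above the other mutants, which lay just above the controls. The log2 fold change was 0.32 (SE 0.16, edgeR adjusted p = 0.382).

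Among the 11 general subunits of complex IV the median log2 fold change was 0.12, with 8 above 0 and 3 below. *Ndufa4*, first described in complex I and now placed in complex IV, was at 33.4, 30.6, 35.7 and 29.8 CPM in controls and 41.6, 37.6, 66.1 and 36.1 CPM in mutants. All 4 mutants were above all controls, with mutant 3 far above the others. The log2 fold change was 0.49 (SE 0.20, edgeR adjusted p = 0.341) and was 0.25 without mutant 3. *Cox5b*, a zinc-binding subunit on the matrix side, was at 20.4, 17.4, 19.9 and 21.6 CPM in controls and 24.2, 25.3, 27.4 and 25.0 CPM in mutants. Its groups were separate and no single library set them apart, since the log2 fold change of 0.36 (SE 0.12, edgeR adjusted p = 0.333) stayed at 0.30 to 0.41 without each library in turn. A further annotated gene shares 30.6% of the 50-base windows of its transcript, so some of its reads may not have been counted. *Cox4i1*, the general form of subunit 4 and one of the most abundant members, had a log2 fold change of -0.01 (SE 0.19).

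The tissue forms of complex IV subunits held the largest differences. Of 9 such genes, 6 were tested, 4 of them were higher in mutants at an unadjusted p below 0.05 (background 6.8%), and their median log2 fold change was 1.11. The 6 include *Cox7a2l*, which at 51.4 to 96.8 CPM lay within the range of the general subunits. *Cox7b2*, *Cox8b* and *Cox8c*, forms known from testis and muscle, had 7, 3 and 0 counts in all 8 libraries together and were not tested. A total of 0 counts allows up to 3 by counting error alone.

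*Ndufa4l2* is related to *Ndufa4*, is known as an oxygen-regulated gene, and is also a known marker of pericytes, the contractile cells on capillaries. Its position is chr10:127514939-127517156 (GRCm38, plus strand). It was at 1.92, 1.71, 4.14 and 3.03 CPM in controls and 6.40, 11.8, 5.14 and 19.3 CPM in mutants. All mutant libraries were above all controls, and the mutants themselves differed among each other by more than the controls did. The log2 fold change was 1.98 (SE 0.47, exact permutation p = 0.0286), and the adjusted p was 0.301 in edgeR's quasi-likelihood test, 0.00448 in DESeq2 and 0.0218 in edgeR's likelihood ratio test. It was 1.80 with a term for the library set, 2.32 within the 5 libraries under 50 M counts, 0.83 in the 3 libraries over 50 M counts and 1.52 to 2.26 without each library in turn. Per kilobase, *Ndufa4l2* stood at 4.21% ± 1.56 of *Ndufa4* in controls and at 13.7% ± 10.3 in mutants (SD, n = 4 each), ratios that overlapped between the groups.

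*Cox4i2*, the form of subunit 4 known from lung and from pericytes, was at 0.493, 0.742, 1.35 and 0.882 CPM in controls and 1.51, 2.21, 1.27 and 2.47 CPM in mutants. Only mutant 3 fell within the range of the controls, below control 3. The log2 fold change was 1.08 (SE 0.36, edgeR adjusted p = 0.333), with 1.56 in the 5 libraries under 50 M counts and 0.30 in the 3 larger ones. Its level per kilobase was 0.616% ± 0.174 of that of *Cox4i1* in controls and 1.41% ± 0.547 in mutants, again overlapping. Its position is chr2:152754173-152765037, plus strand.

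*Cox7a1* and *Cox6b2*, forms known from muscle and heart and from testis, were near the lower end of detection. *Cox7a1* had 11 to 37 counts per library and was at 0.285, 0.241, 0.285 and 0.453 CPM in controls and 0.837, 0.722, 0.487 and 0.759 CPM in mutants (log2 fold change 1.14, SE 0.34, edgeR adjusted p = 0.333). *Cox6b2* had 3 to 23 counts per library, at 0.130, 0.0557, 0.171 and 0.167 CPM in controls and 0.362, 0.313, 0.340 and 0.237 CPM in mutants (log2 fold change 1.27, SE 0.43, adjusted p = 0.333). Both pairs of groups were separate, but the differences amount to less than 1 CPM. *Cox6a2*, another muscle form, went the other way only through controls 2 and 3: it was at 6.18, 21.4, 27.9 and 7.01 CPM in controls and 5.36, 7.27, 12.1 and 7.26 CPM in mutants. Over all libraries this gave a log2 fold change of -0.97 (SE 0.51, edgeR adjusted p = 0.402), and within the 5 libraries under 50 M counts 0.00. *Cox7a2l*, which helps to join complexes III and IV, was at -0.25 on that scale.

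**Figure D2:**
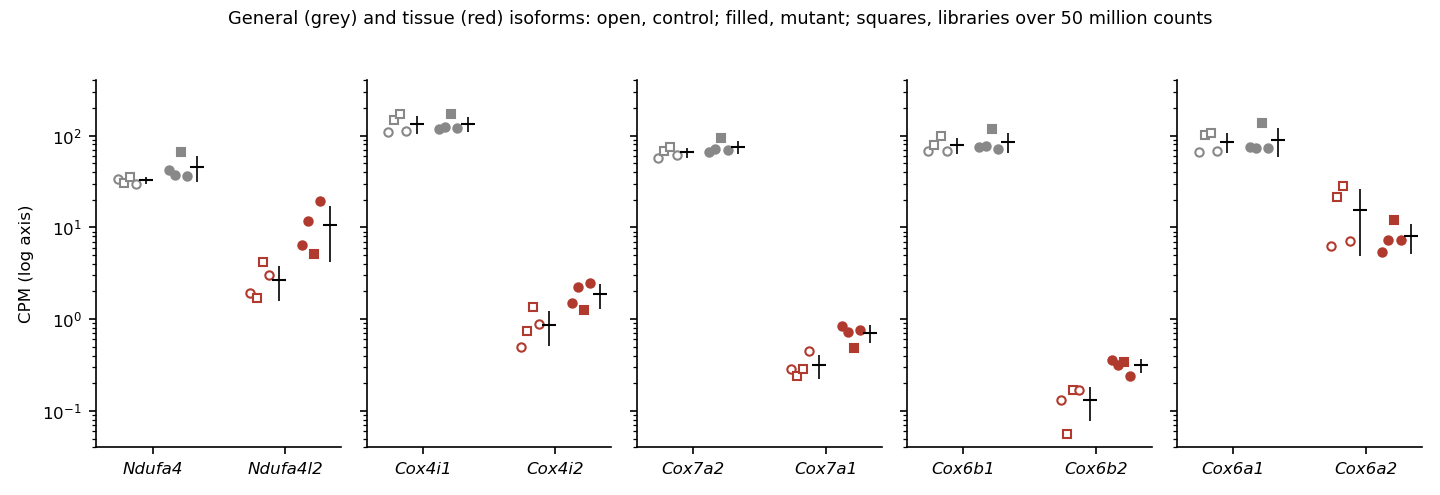
CPM per library (log axis) of 5 general complex IV genes (grey) and their tissue forms (red), with controls open, mutants filled and libraries over 50 M counts as squares (black bars, mean ± SD, n = 4). The tissue forms *Ndufa4l2*, *Cox7a1* and *Cox6b2* are higher in all mutant libraries than in all controls, *Cox4i2* overlaps in 1 library, and *Cox6a2* is high in controls 2 and 3.

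Markers of pericytes, fibroblasts and ducts leaned upwards beside these tissue forms, and none of them passed an adjusted p of 0.05 in edgeR's quasi-likelihood test. DESeq2 called 5 of the 6 fibroblast markers as higher with a fold change over 2 (background 0.729%), with *Col1a1* at an adjusted p of 0.000262. It also called 1 pericyte marker, *Cspg4* (adjusted p = 0.0126), and 0 ductal markers. Of 10 pericyte and smooth muscle markers 9 were tested and 8 had a log2 fold change above 0 (background 50.2%), with 4 higher at an unadjusted p below 0.05 (background 6.8%) and a median of 1.46. In the 3 libraries over 50 M counts, where mutant 3 is the only mutant, 4 of the 9 were above 0 and the median was -0.23. Within the 5 libraries under 50 M counts all 9 were above 0 and the median was 0.96. Their summed level was 174.1 to 367.9 CPM in controls and 171.4 to 551.8 CPM in mutants, which overlapped, and no marker was at 0. Mutant 1 held the highest sum, with *Acta2* at 63.8 CPM, *Des* at 47.1 CPM and *Myh11* at 130.6 CPM. The other mutants were at 4.22 to 8.35, 7.57 to 8.35 and 6.09 to 21.9 CPM. *Acta2* and *Des* were among the 4 markers counted at an unadjusted p below 0.05. *Rgs5*, the most abundant of them, had a log2 fold change of -0.26, while *Abcc9* (0.96) and *Cspg4* (1.46) were higher in every mutant library. All 6 fibroblast markers had a log2 fold change above 0, 5 of them at an unadjusted p below 0.05, and summed to 119.8 to 284.5 CPM in controls and 409.8 to 653.6 CPM in mutants. Of 5 ductal markers 4 were above 0, 2 of them at an unadjusted p below 0.05, with a median of 1.02. Other lists did not lean this way over all libraries: 3 of 6 endothelial, 1 of 5 leukocyte and 0 of 8 endocrine markers were above 0. These counts depended on the library set, as within the 5 libraries under 50 M counts they were 3, 5 and 4. Markers of striated muscle were close to absent, with 1 of 8 tested, a sum of 1.09 to 3.04 CPM in controls and 2.13 to 3.55 CPM in mutants, and *Myh4* at 0 in every library. The part of these cells in the result was not tested. In bulk islets, fewer or more cells of a type and less or more RNA per cell cannot be told apart.

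Other oxygen-responsive genes of mitochondria leaned upwards over all libraries but not in the larger ones. Of 10 such genes 9 were tested, 7 had a log2 fold change above 0 (background 50.2%) and 2 of these were higher at an unadjusted p below 0.05 (background 6.8%), with a median of 0.54 and no gene past an adjusted p of 0.05. In the 3 libraries over 50 M counts, where mutant 3 is the only mutant, 2 were above 0 and 7 below, with a median of -0.10. Within the 5 libraries under 50 M counts 7 were above 0 and 2 below, with a median of 0.82. There 6 were higher at an unadjusted p below 0.05 (background 12.7%) and 0 lower (background 10.7%). *Bnip3*, a mitophagy receptor, was at 39.7, 30.4, 20.0 and 74.8 CPM in controls and 136.6, 252.4, 24.4 and 271.3 CPM in mutants. Mutant 3 was within the control range and the other 3 mutants were far above it (log2 fold change 2.05, SE 0.68, adjusted p = 0.333 from edgeR and 0.0443 from DESeq2). Mutant 3 was also the lowest of the mutants in *Ndufa4l2*, *Cox4i2* and *Cox7a1*. *Pdk1*, the kinase that inhibits pyruvate dehydrogenase, had a log2 fold change of 1.49 and, like *Bnip3*, its lowest mutant value in mutant 3.

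In ATP synthase 9 of 15 genes were above 0 and 6 below, with a median log2 fold change of 0.01, which was 0.16 with the library set term and 0.11 within the 5 libraries under 50 M counts. *Atp5b*, the catalytic β-subunit and the most abundant member per kilobase, was at 493.1, 676.1, 673.9 and 492.7 CPM in controls and 582.6, 570.8, 765.7 and 543.5 CPM in mutants (log2 fold change 0.08, SE 0.17). *Atp5a1*, the α-subunit, was at -0.07 (SE 0.20) on that scale. In both, the libraries over 50 M counts were high in either genotype. *Atp5c1*, the γ-subunit that turns within the catalytic head, was at 154.6, 165.1, 163.4 and 172.9 CPM in controls and 176.9, 201.0, 215.6 and 185.8 CPM in mutants. Its groups were separate by a small step, with a log2 fold change of 0.25 (SE 0.10, edgeR adjusted p = 0.338). The membrane part of the enzyme held the single member that was lower at an unadjusted p below 0.05, *Atp5l* (subunit g), whose value is uncertain for the reason given further on.

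The 3 libraries of over 50 M counts differed from the rest in many of these genes. With both terms in one fit, 74 of the 90 genes were higher in control 2, control 3 and mutant 3 than in the other 5 libraries (background 50.4%), with a median log2 difference of 0.32. At an adjusted p below 0.05, 37 genes were higher in them (background 9.03%) and 1 was lower (background 8.34%). *Cox8a*, a small membrane subunit of complex IV, was at 92.0, 103.0 and 114.0 CPM in control 2, control 3 and mutant 3 and at 35.7 to 48.1 CPM in the other 5, a log2 difference of 1.38 (edgeR adjusted p = 0.00025). *Atp5k*, subunit e of ATP synthase, was at 25.3, 30.1 and 36.9 CPM against 9.63 to 13.3 CPM, a log2 difference of 1.49 (adjusted p = 0.00069). The 3 libraries did not overlap the other 5 in either gene. The sum of 8 endocrine markers was 179376 and 289709 CPM in controls 2 and 3. It was 77003 CPM in mutant 3 and 50476 to 69872 CPM in the other 5. In mutant 3 *Ins2* (28861 CPM), *Chga* (4587 CPM), *Chgb* (2107 CPM) and *Ppy* (4515 CPM) lay above the other 5. *Gcg* (15286 CPM), *Ins1* (9179 CPM) and *Iapp* (10228 CPM) lay within the range of those 5. Summed acinar markers were high in controls 2 and 3 and were at 95.5 CPM in mutant 3. The part of depth, cell make-up and preparation in this difference was not tested.

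**Figure D3:**
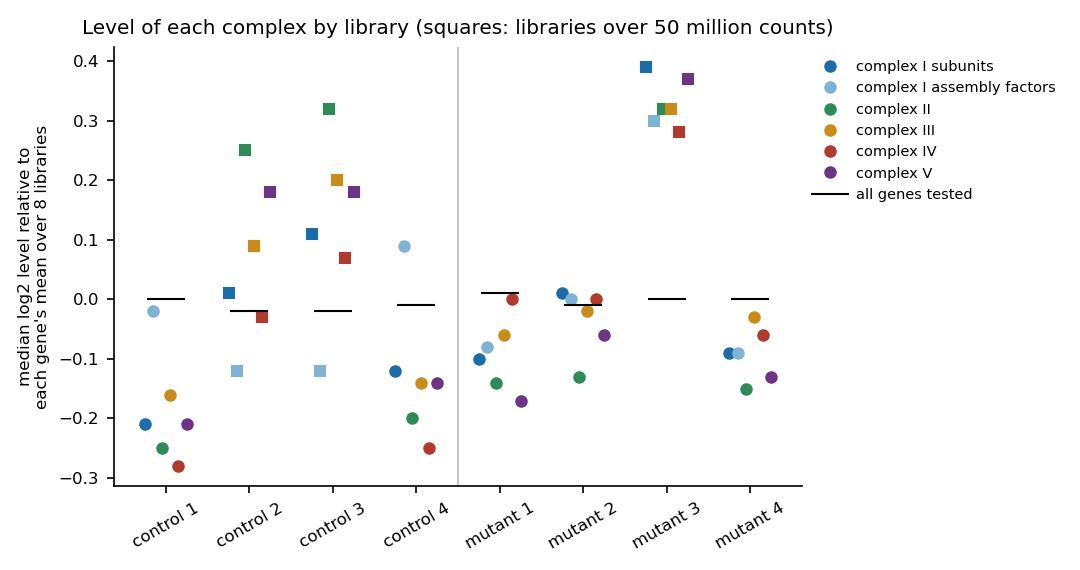
Median log2 level of each complex in each library relative to each gene's mean over the 8 libraries (y axis; squares, libraries over 50 M counts; black dashes, all genes tested). All 6 groups of genes are at 0.28 or above in mutant 3, while the other 3 mutants lie between -0.17 and 0.01.

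With the library set as a term, the genotype difference was small but more even across the genes. Of the 90 genes, 77 then had a log2 fold change above 0 and 13 below (background 50.5%), with a median of 0.18. At an unadjusted p below 0.05, 27 were higher (background 8.65%) and none lower (background 6.54%), and none passed an adjusted p of 0.05 (background 0.0328% higher and 0.00656% lower). By complex, 35 of 36 complex I subunits, 8 of 8 complex III genes, 14 of 17 complex IV genes and 13 of 15 complex V genes were above 0. Within the 5 libraries under 50 M counts, 73 of 90 genes were above 0 (background 50.4%), with a median of 0.09, and the unadjusted p was below 0.05 for 21 higher genes (background 12.7%) and for 2 lower ones (background 10.7%). In the 3 larger libraries, which allow no test, mutant 3 lay above the mean of controls 2 and 3 in 76 genes, with a median of 0.32. The lean with this term was not particular to these genes. Cytosolic ribosomal proteins, another set of short abundant transcripts, had a median of 0.14 with 55 of 78 genes above 0. Of these 78 genes, 10 were higher and 1 was lower at an unadjusted p below 0.05. Mitochondrial ribosomal proteins had a median of 0.10 with 63 of 77 genes above 0, and 5 were higher and 1 was lower at an unadjusted p below 0.05.

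**Figure D4:**
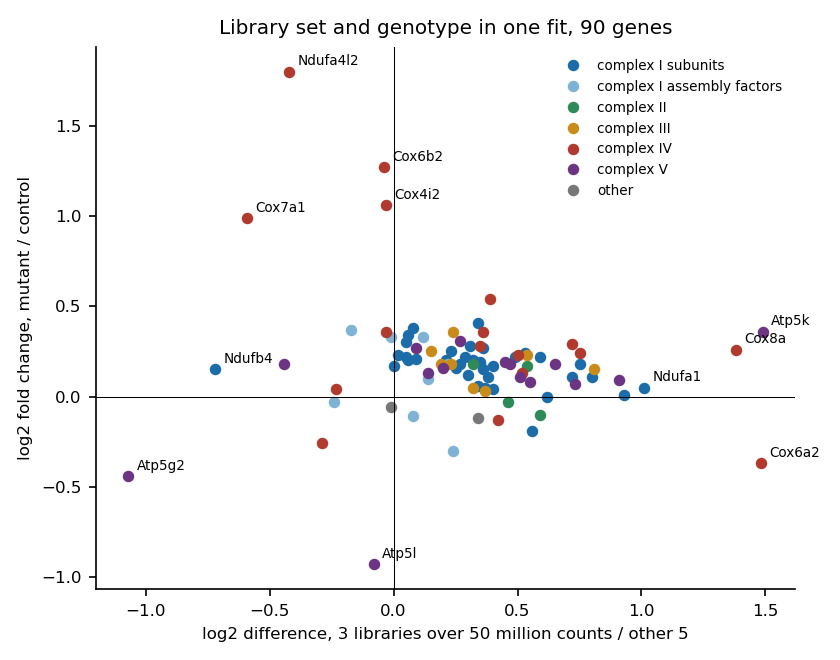
Log2 difference between the 3 libraries over 50 M counts and the other 5 (x axis) against the log2 fold change of mutant over control (y axis) in one edgeR fit, for 90 genes coloured by complex. Most genes lie to the right of 0 and slightly above it, *Cox8a*, *Atp5k* and *Cox6a2* lie far to the right, and *Ndufa4l2*, *Cox6b2*, *Cox4i2* and *Cox7a1* lie high and at or left of 0.

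The levels of some members were uncertain, since their transcripts share stretches with other annotated genes, many of them pseudogenes. Reads were 50 bases long and counted with default settings, under which a read that aligns to several places is not counted. The 74 general subunits of the 5 complexes were ranked by mean CPM per kilobase. In the 10 lowest, at 0.766 to 24.7 CPM per kilobase, a median of 43.8% of the 50-base windows of the transcript also occurred in another annotated gene. In the 10 highest, at 116.0 to 320.9 CPM per kilobase, the median was 0%, and it was also 0% in the 54 between them. These 54 nevertheless held 4 subunits with over 30% of windows found elsewhere and levels of 38.4 to 53 CPM per kilobase, *Ndufa12* (53.8%), *Atp5h* (50.5%), *Uqcrb* (43.2%) and *Cox5b* (30.6%). The 6 lowest were *Atp5g2*, *Atp5l*, *Cox7c*, *Atp5g1*, *Ndufab1* and *Ndufs5*, with 41.2% to 68.5% of windows found elsewhere, whereas *Ndufa11*, the next, shared 3.5%. The part of uncounted reads in these levels was not tested.

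**Figure D5:**
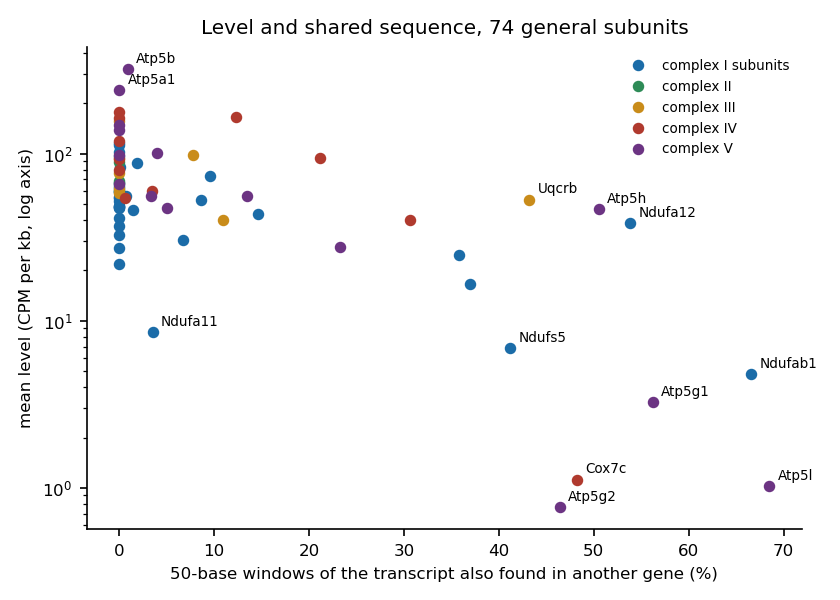
Mean level over the 8 libraries (CPM per kilobase, log axis) against the percentage of 50-base windows of the transcript that also occur in another gene, for 74 general subunits coloured by complex. The 6 lowest subunits all share over 40% of their windows, and *Atp5b*, the highest at 320.9 CPM per kilobase, shares 0.9%.

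A single coding exon shows the extent of the overlap in each of *Atp5l* and *Cox7c*, where capitals mark bases inside a 50-base window that also occurs in another annotated gene. In *Atp5l* (subunit g of ATP synthase), all 161 bases of the exon at chr9:44914651-44914811 (GRCm38, minus strand) are shared, with 11 other genes of which 10 are annotated pseudogenes. In *Cox7c* (subunit 7c of complex IV), all 72 bases at chr13:86045756-86045827 (minus strand) are shared with 2 pseudogenes.
Atp5l: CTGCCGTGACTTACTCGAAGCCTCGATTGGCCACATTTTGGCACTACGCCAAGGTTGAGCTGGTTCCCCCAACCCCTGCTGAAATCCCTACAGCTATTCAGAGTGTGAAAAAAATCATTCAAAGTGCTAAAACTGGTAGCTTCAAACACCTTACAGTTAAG
Cox7c: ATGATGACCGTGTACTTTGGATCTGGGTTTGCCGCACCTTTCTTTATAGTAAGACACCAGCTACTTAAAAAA

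*Atp5l* had 11 to 41 counts per library and *Cox7c* 15 to 34. *Atp5l* was at 0.908, 0.761, 0.627 and 0.405 CPM in controls and 0.249, 0.602, 0.295 and 0.308 CPM in mutants, where mutant 2 fell among the controls (log2 fold change -0.91, SE 0.40, edgeR adjusted p = 0.356). *Cox7c* was at -0.23 (SE 0.37). *Atp5o*, the oligomycin sensitivity protein, shares 76.3% of its windows with an annotated gene that overlaps it, so its counts are uncertain too, and its log2 fold change was 0.26 (SE 0.15). Of the 3 genes for the identical c-ring subunit, *Atp5g3* carried nearly all counts per kilobase and had a log2 fold change of 0.06, beside 0.27 for *Atp5g1* and -0.21 for *Atp5g2*.

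Promoters were read from RefSeq for 74 of the 93 genes (GRCm38.p6, from 250 bases before to 50 after each start site) and searched on both strands for the letters of motifs known from respiratory genes. The palindromic motif of NRF1 was in 9.46% of the members' promoters, 1.07% of all promoters and 2.11% of those of genes tested. With 1 base left free in its middle it was in 25.7%, 5.19% and 10.4%, a count that includes the exact matches. CCGGAAG, bound by GABP and other ETS factors, was in 24.3%, 9.93% and 18%. AAGATGGC, bound by YY1, was in 13.5%, 3.19% and 4.77%, and AAGGTCA, bound by ERR receptors, in 10.8%, 5.38% and 4%. The short motifs of hypoxia-inducible factors were at shares like those of other expressed genes, ACGTG in 23%, 21.8% and 28.3% and GCGTG in 56.8%, 35.2% and 53.9%.

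The 250 bases before the start of *Cox6a1* and of *Cox7a1* are shown as examples of a general and of a tissue form of complex IV, with matches to any of the motifs in capitals. The first (chr5:115348959-115349208, minus strand) holds the NRF1 motif, a second match to its form with a free base and 1 match to CCGGAAG on the opposite strand. The other (chr7:30183921-30184170, plus strand) holds 2 matches to GCGTG, 1 on each strand, and none of the other motifs.
Cox6a1: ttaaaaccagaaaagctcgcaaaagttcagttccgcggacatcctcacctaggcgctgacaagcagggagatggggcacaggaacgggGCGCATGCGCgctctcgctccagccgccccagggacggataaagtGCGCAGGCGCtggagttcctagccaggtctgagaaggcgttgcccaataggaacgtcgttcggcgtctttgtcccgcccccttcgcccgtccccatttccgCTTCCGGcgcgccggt
Cox7a1: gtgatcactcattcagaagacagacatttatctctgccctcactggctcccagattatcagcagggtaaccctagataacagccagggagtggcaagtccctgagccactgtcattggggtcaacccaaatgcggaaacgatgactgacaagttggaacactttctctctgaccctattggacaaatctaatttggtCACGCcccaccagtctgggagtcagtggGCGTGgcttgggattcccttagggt
The windows of *Ndufa4l2* and *Cox4i2* were not among those given. *Cox6a1* was at 66.2, 102.3, 106.7 and 68.0 CPM in controls and 75.8, 73.6, 138.1 and 72.6 CPM in mutants, high in the 3 larger libraries and with a log2 fold change of 0.07 (SE 0.26) between genotypes.

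Genes that work beside the respiratory chain gave the same picture of small differences, none past an adjusted p of 0.05 in edgeR. Of 31 genes for electron carriers, ubiquinone synthesis and assembly or inhibition of the other complexes, 21 had a log2 fold change above 0 and 10 below. Their median was 0.05. This list also held *Cyc1*, cytochrome c1 of complex III, which the rule by symbol did not take. *Cyc1* was at 64.8, 61.0, 51.3 and 65.7 CPM in controls and 71.5, 70.1, 98.5 and 68.2 CPM in mutants. It was higher in every mutant library (log2 fold change 0.35, SE 0.15, edgeR adjusted p = 0.349). *Ttc19*, a complex III assembly protein, was lower in every mutant library, at 40.0, 49.8, 48.0 and 41.1 CPM in controls and 34.6, 32.0, 33.1 and 34.0 CPM in mutants (log2 fold change -0.42, SE 0.11, adjusted p = 0.333 from edgeR and 0.0259 from DESeq2). The 17 citrate cycle genes had a median of -0.12, with 6 above 0 and 11 below, and citrate synthase (*Cs*) was at 0.20 (SE 0.09). The 14 regulators of mitochondrial biogenesis had a median of 0.06, with *Esrra*, an orphan receptor, at 0.65 (SE 0.25, adjusted p = 0.333). Mitochondrial ribosomal proteins had a median of 0.05 over 77 genes, with *Mrpl1* at -0.34, and cytosolic ribosomal proteins 0.05 over 78 genes, with *Rps28* at 0.43.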

How the data were processed

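For all 8 libraries the authors deposited raw counts per gene. Adapters and poly(A) tails had been trimmed (Trimmomatic, FASTP), and reads aligned with STAR and counted with featureCounts. The submitters' processing notes list these last programs, edgeR and the build GRCm38, with no version. A deposited table of the authors' comparison (fold changes, p-values and 8 CPM columns under other library numbers) was not used.

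Counts were tested in R 4.3.3 with edgeR 4.0.16 (TMM factors, low count filter, quasi-likelihood test, genotype as the only term, Benjamini-Hochberg adjustment over 15233 genes); calls were made at a fold change over 2 and an adjusted p below 0.05. The batches of the authors' model are not given in the sources used here, so terms for library set and replicate number were alternatives, as were DESeq2 1.42.0, the likelihood ratio test, an older form of the test, RLE factors, total counts, other filters and leaving out libraries. CPM use TMM-scaled library sizes. For single genes the exact permutation test over libraries was used, two-sided. Between any 2 libraries the chi-square per gene was 27.9 or more, so none was a copy of another.

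The genes, lists, markers and motifs were chosen with earlier results of these data known. Genes named are, per complex, the 3 with the smallest unadjusted p and the highest and lowest fold change, the catalytic core, the paired isoforms, the untested members and the gene with the smallest p of each related list; others were named after their values were seen. Windows of 50 bases were matched exactly between GENCODE transcripts of all genes (93 of 93 members matched, 1 by position). Protein sequences were not used here. A single-gene result of 1 member is not reported here.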

Additional observations from a re-analysis of the deposited data

Results flagged for a closer look

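Outlying libraries were sought within each genotype for 44 named genes. Of 88 groups of 4 libraries, 16 held a library whose gap to the nearest of the others exceeded the 95% limit of Dixon's test, which chance gives in about 1 group in 20. In 15 of the 16 that library was mutant 3, high each time, and no control group was flagged. The genes were measured in the same libraries, and some were named for a small p or an extreme fold change. The flags are therefore not independent of each other, and their number is not a test. Mutant 3 is the single mutant library of over 50 M counts. Controls 2 and 3 were both above controls 1 and 4 in most of the genes flagged for mutant 3. This test does not single out such a pair. In *Atp5o*, *Ndufs8* and *Uqcrq* controls 2 and 3 were not both above controls 1 and 4, so the high value of mutant 3 was not shared by them. The part of the library set in these values was not tested beyond the fits with its term.

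In ATP synthase, mutant 3 was at 721.3 CPM for *Atp5a1* (497.2 to 528.6 in the other 3 mutants) and at 61 CPM for *Atp5o* (39.8 to 42.4). In complex IV it was at 171.3 CPM for *Cox4i1*, 138.1 for *Cox6a1*, 116.5 for *Cox6b1*, 93.2 for *Cox7a2*, 82.5 for *Cox7b* and 114.0 for *Cox8a*, where the other mutants lay at 117.0 to 124.7, 72.6 to 75.8, 71.5 to 77.6, 66.1 to 70.5, 46.9 to 47.2 and 41.6 to 48.1 CPM. In complex I it was at 42.9 CPM for *Ndufs8* and 97.6 CPM for *Ndufv1*, and in complex II at 292.1 CPM for *Sdha* and 86.3 CPM for *Sdhb*. In complex III it was at 116.8 CPM for *Uqcrc1*, 66.1 CPM for *Uqcrh* and 119.0 CPM for *Uqcrq*. The remaining flag was mutant 2 in *Atp5l*, at 0.602 CPM beside 0.249 to 0.308 in the other mutants, where the counts are few and the transcript is shared with pseudogenes.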

How the results depend on the processing

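Depth limits *Cox6b2*, *Cox7a1*, *Cox4i2* and *Atp5l*, which had 3 to 104 counts per library. No member was called by edgeR's quasi-likelihood test under any normalization, filter, term or left-out library. The likelihood ratio test and DESeq2 each called 1, *Ndufa4l2*. Over all genes, 0 were called as reported and without any single library, 187 by DESeq2, 91 by the likelihood ratio test, 3 with the library set term and 10 within the 5 libraries under 50 M counts. Members higher at an unadjusted p below 0.05 numbered 9 as reported, 18 with total counts only, 27 with the library set term, 21 within the 5 libraries and 6 to 10 without each library in turn. Members lower numbered 1 as reported, 0 with DESeq2, the older form of the test, total counts, either other filter, the replicate block or the library set term, 2 within the 5 libraries and 0 to 3 without each library in turn.

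The median over all members was 0.32 in the 3 libraries over 50 M counts and -0.05 to 0.16 without each library in turn, the lowest without mutant 3. In those 3 libraries it was 0.38 for complex I subunits, 0.49 for assembly factors and 0.39 for complex IV. With total counts only it was 0.25 for assembly factors, 0.29 for complex III, 0.31 for complex IV and 0.24 for complex V, where the median of all genes moved to 0.15. Without controls 2 and 3 it was 0.42 for complex IV and 0.25 for complex V, and within the 5 libraries -0.05 for assembly factors. Within the 5 libraries 15 members turned from negative to positive log2 fold changes and 3 the other way, with *Ndufa1* going from -0.31 to 0.28, *Sdhd* from -0.29 to 0.08 and *Atp5k* from -0.01 to 0.33. Of these *Cox4i1* came to 0.14, *Cox8a* to 0.27 and *Uqcrh* to 0.32. *Cox8a* was also positive with the library set term (0.26) and *Uqcrh* without controls 2 and 3 (0.48). The causes were not tested.

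Control and mutant libraries of the same replicate number deviated together for numbers 1, 3 and 4 (correlations 0.432, 0.433 and 0.231) but not for number 2 (-0.03), and 3 of the 4 correlated best with their own number, a hint of pairing from the data that the labels do not give. Number 2 is also the only number whose libraries lay on different sides of 50 M counts (control 2 at 62.2 M, mutant 2 at 39.6 M). Pairing and library set cannot be told apart in these correlations. As number 2 did not deviate together, the block was kept as an alternative. With the replicate block, none was called, 10 members were higher at an unadjusted p below 0.05 and 0 were lower, and the median was 0.09.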
